A study of Homo sapiens with 12 samples.

Results

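Apoptosis regulators and caspases were followed in 2 uveal melanoma cell lines with and without overexpression of the long noncoding RNA CANT1. The group is a list of 39 named genes: 8 that restrain apoptosis, 25 that promote it and 6 with roles of both kinds or in inflammation. Each gene was read by the probe set annotated to it alone that had the highest mean over all arrays. Of the 39 genes, 38 had such a probe set, among 18132 genes in all, and 37 were bright enough to be tested. RIPK1, a kinase downstream of tumour necrosis factor receptors, was not analysed here. CASP10, an initiator caspase, stayed below a signal of 100 on every array (5.84 to 6.93 on the log2 scale used below) and was not tested.

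Apoptosis is carried out by caspases, proteases that cut each other and their substrates once activated. In the mitochondrial route, BH3-only proteins counter the BCL2 family proteins that guard the outer mitochondrial membrane, and the pore formers then release cytochrome c and other proteins into the cytosol. In the death receptor route, ligands such as TRAIL recruit the adaptor FADD and initiator caspases to the receptor. Inhibitors such as XIAP and CFLAR act on the caspases of these routes. Melanoma cells are known for high levels of guard proteins of the BCL2 family, several of which are controlled by the pigment cell factor MITF.

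MUM2B and OCM1 are human cell lines labelled as uveal melanoma, a tumour of the pigment cells of the eye. CANT1 is a transcript of the CASC15 locus. The 4 groups were wild type MUM2B, MUM2B with CANT1 overexpressed, wild type OCM1 and OCM1 with CANT1 overexpressed, with 3 Affymetrix arrays each. In each group the replicate 1 array carries a growth label in which the CANT1 cells had been selected with puromycin, and replicates 2 and 3 carry a label of DMEM medium with 10% FBS. No empty vector is described, so CANT1 and the vector or selection that came with it cannot be told apart. Separate cultures are not named for the replicates, so the p-values reflect array-to-array spread alone, and that spread may be technical. The study compared CANT1 with wild type cells in each line, and the members are described for that comparison, for the 2 labelled sets and for the 2 lines. Levels are log2 of scaled signal plus 32, on which a signal of 100 reads 7.04, and the added 32 understates the fold of dim genes. As bulk RNA was measured, fewer cells of a kind and less RNA per cell cannot be told apart. Each ± is the standard error of a difference from the limma fit.

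One array stood apart. The wild type OCM1 array of replicate 1 correlated with the other OCM1 arrays at a mean r of 0.828 across genes, against 0.936 to 0.950 for those arrays, and with the MUM2B arrays at 0.795. On it the pigment cell genes MITF and PMEL had signals of 382 and 8093, against 3757 to 5266 and 20960 to 31480 on the other OCM1 arrays. TNFRSF10B, a TRAIL receptor gene, read 3455 there, against 52.2 to 106 on the other OCM1 arrays and 1494 to 3505 on the MUM2B arrays. The 7 melanocyte markers measured summed to 620 to 829 in MUM2B, where PMEL lay at 117 to 166. The endothelial gene CDH5 lay there at 2385 to 4634. The other endothelial markers were far lower in MUM2B: PECAM1 at 90.8 to 579, VWF at 112 to 226 and CLDN5 at 22.4 to 67.9. VWF overlapped its range in OCM1 (151 to 210). With CANT1 the melanocyte sums were 641 to 734 in MUM2B and 75702 to 81555 in OCM1, against 14219 to 76992 in wild type OCM1. Within that sum TYRP1 read 13590 and 14005 in wild type and 2664 and 3789 in CANT1 OCM1 cells on replicates 2 and 3. The 3 retinal pigment epithelium markers summed to 299 to 615 in wild type and 847 to 933 in CANT1 OCM1 cells, without overlap. Within that sum RPE65 stayed at 34.1 to 49.4 over the 12 arrays. Endothelial sums, to which CDH5 gave the largest part, were 2662 to 4111 in wild type and 3156 to 4905 in CANT1 MUM2B cells. The immune gene PTPRC stayed at 14.2 to 18.0 over the 12 arrays, LYZ at 20.3 to 54.3 and CD3E at 64.6 to 99.1. The immune marker CD68 read 89.2 to 523. Of the fibroblast markers, LUM read 22.4 to 37.4 in MUM2B, 62.2 on the array that stood apart and 1222 to 1437 on the other OCM1 arrays. The remaining fibroblast markers lay between 31.7 and 149. The log2 ratio of 3′ to 5′ ACTB control signal, a measure of RNA integrity, ran from 2.15 to 2.51 for replicate 1, and for the other replicates from 0.473 to 0.911. Within OCM1 it was 0.750 and 0.666 on the wild type arrays of replicates 2 and 3 and 0.911 and 0.845 on the CANT1 arrays. The part of these differences in the results below was not tested. CASC15 had 1 probe set, at 12.9 to 17.9, which need not lie in CANT1 and so does not check the overexpression.

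On replicates 2 and 3, CANT1 cells of MUM2B had higher levels of 8 members on both sides of apoptosis. They were the guard genes BCL2A1, MCL1 and BCL2L2, the caspase 8 inhibitor CFLAR, the pro-apoptotic genes TNFSF10, HTRA2 and PMAIP1, and the inflammatory caspase gene CASP1. Of these, TNFSF10 reached a signal of 100 in the CANT1 MUM2B group alone, so it was tested through the group where it was higher. CASP2, DAPK1, CYCS and AIFM1, all pro-apoptotic, were lower. In OCM1 the guard gene BCL2L2 and the pro-apoptotic genes PMAIP1, BCL2L11, FADD, CASP6 and DAPK1 were higher with CANT1. BCL2A1, CASP1, BID and HRK were lower there. The differences ran from 0.40 to 0.87 on the log2 scale among the members that rose in MUM2B, and from 0.40 to 0.88 among those that rose in OCM1. When all 12 arrays were fitted with a term for the labelled set, 0 of 37 members passed in either line.

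In MUM2B, 8 of 37 members rose and 4 fell on replicates 2 and 3 (limma adjusted p under 0.05), where 14.2% of all 12372 genes tested rose and 10.4% fell. The members' median difference was 0.12, against 0.0047 over all genes. Split by side, the medians on replicate 1 were −0.27 for the anti-apoptotic members (3 of 8 above zero) and 0.012 for the pro-apoptotic ones. Over the 12 arrays they were 0.084 and 0.042. On replicates 2 and 3, 4 of 8 anti-apoptotic members rose and 0 fell (median 0.25). There 3 of 24 pro-apoptotic members tested rose and 4 fell (median 0.094). The counts of members that rose include TNFSF10, which entered the test through the CANT1 group. Single arrays moved the count: 5 members passed without the wild type array of replicate 2, and 6 without the CANT1 array of replicate 3. BCL2A1, MCL1, CFLAR, CASP2 and DAPK1 passed with any 1 of the arrays left out, while BCL2L2, PMAIP1, CASP1, TNFSF10, HTRA2, CYCS and AIFM1 did not pass without the first of these arrays.

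In OCM1, 6 of 37 members rose and 4 fell, against 13.9% and 9.51% of all genes. The members' median was 0.050, against 0.039 over all genes, so the list as a whole lay close to the rest. On replicate 1, which includes the array that stood apart, the median was −0.085 for the anti-apoptotic and −0.075 for the pro-apoptotic members. Over the 12 arrays these medians were 0.046 and 0.011. On replicates 2 and 3, 1 anti-apoptotic member rose and 1 fell (median 0.13). Of the 24 pro-apoptotic members 5 rose and 2 fell there (median 0.045). Without the CANT1 array of replicate 2, 6 members passed: BCL2A1, CASP1, PMAIP1, BID, BCL2L11 and FADD, which passed with any 1 of the arrays left out. BCL2L2, CASP6, DAPK1 and HRK did not pass without it. Over the 12 arrays, 0% of 12715 genes passed in MUM2B, 0.118% in OCM1 and 0.0472% for the difference of the effects between the lines, with 0 members in each. At an unadjusted p under 0.05 the members numbered 2 in MUM2B, 6 in OCM1 and 6 for the difference, where 1.73%, 9.26% and 4.99% of all genes lay under it. The member counts stayed at 0 without the OCM1 array that stood apart.

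**Figure D1:**
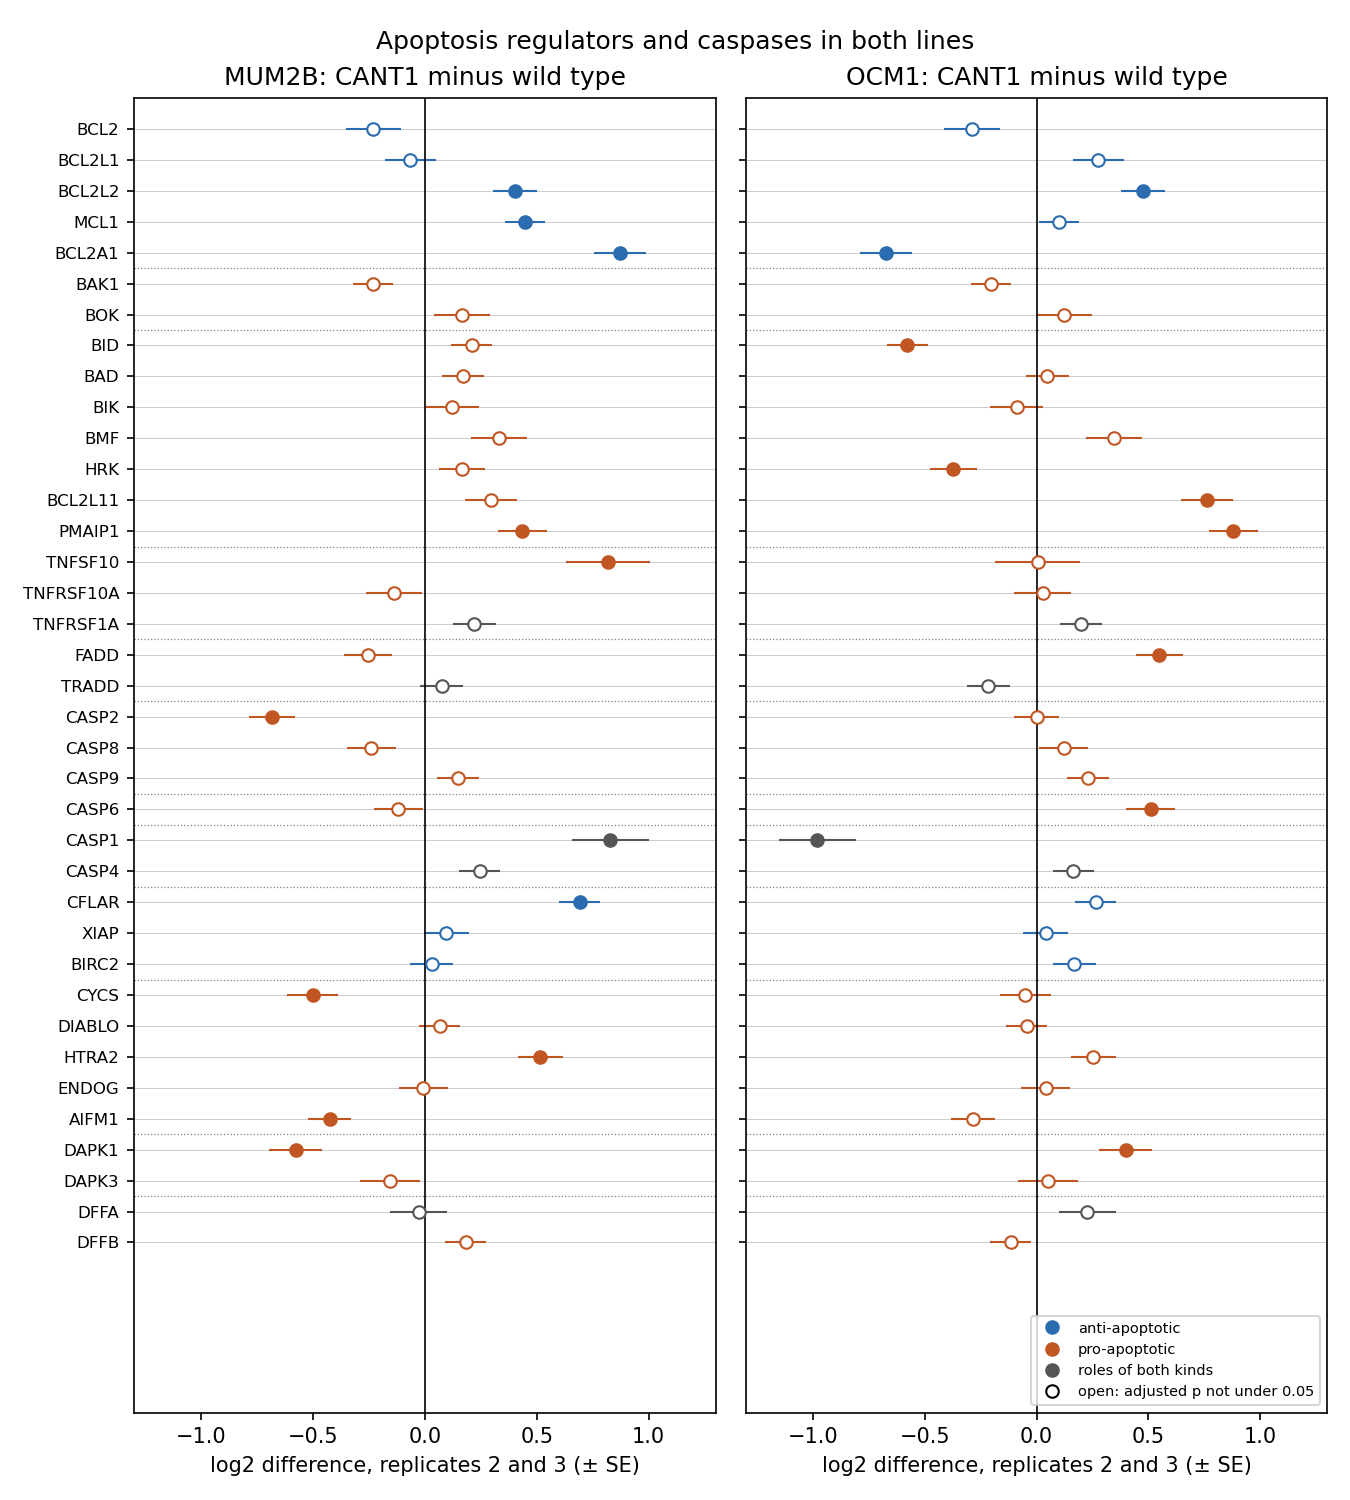
Log2 difference between CANT1 and wild type cells (horizontal axis, ± SE from the limma fit, 2 arrays per group) for the 37 tested members, MUM2B on the left and OCM1 on the right, with dotted lines between role groups. Filled points passed at an adjusted p under 0.05 (12 in MUM2B and 10 in OCM1); BCL2A1 and CASP1 lie to the right of zero in MUM2B and to the left in OCM1.

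The members that passed in both lines numbered 5, which is 41.7% of the 12 in MUM2B and 50% of the 10 in OCM1. Over all genes 932 passed in both lines, 30.6% of the calls in MUM2B and 32.2% of those in OCM1, 623 of them in the same direction and 309 in opposite ones. The members are few, and nothing particular to them is read from these shares. BCL2L2 and PMAIP1 rose in both. BCL2A1 and CASP1 rose in MUM2B and fell in OCM1, and DAPK1 fell in MUM2B and rose in OCM1. These 3 differed between the lines in the test of the difference itself, which is given with the lines below.

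BCL2L2 encodes BCL-W, a guard protein of the BCL2 family. In MUM2B it read 10.75, 9.97 and 10.01 on the wild type arrays of replicates 1, 2 and 3, an order kept throughout, and 10.32, 10.36 and 10.42 on the CANT1 arrays. OCM1 gave 9.84, 9.01 and 9.21 in wild type and 9.51, 9.63 and 9.54 in CANT1 cells. Replicates 2 and 3 did not overlap between the groups in either line, and in both lines the wild type array of replicate 1 was the highest of all. The differences on replicates 2 and 3 were 0.40 ± 0.10 in MUM2B (adjusted p = 0.0133) and 0.48 ± 0.10 in OCM1 (adjusted p = 0.00546). They differed from each other by 0.07 ± 0.14 (adjusted p = 0.762).

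PMAIP1 encodes NOXA, a BH3-only protein that binds MCL1. Wild type MUM2B read 12.11, 9.98 and 10.26 and CANT1 MUM2B 11.45, 10.53 and 10.58. Wild type OCM1 read 13.20, 8.97 and 8.89, and CANT1 OCM1 10.28, 9.77 and 9.85. The replicate 1 array was the highest of its group in all 4 groups, most of all in wild type OCM1. PMAIP1 rose on replicates 2 and 3 by 0.44 ± 0.11 in MUM2B (adjusted p = 0.0144) and 0.88 ± 0.11 in OCM1 (adjusted p = 0.000248), a 1.84-fold change. Its second probe set gave 0.27 and 0.90.

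BCL2A1, a guard gene known as a target of MITF in melanocytes and of NF-κB elsewhere, had the largest rise among the members in MUM2B. There wild type cells read 9.66, 9.09 and 9.13 and CANT1 cells 9.99, 10.16 and 9.81, so that all 3 CANT1 arrays lay above all 3 wild type arrays. In OCM1 wild type cells read 6.33, 10.31 and 10.35 and CANT1 cells 11.01, 9.62 and 9.69. The value of 6.33 is that of the array that stood apart and the lowest of the 12. BCL2A1 rose on replicates 2 and 3 by 0.87 ± 0.12 in MUM2B (adjusted p = 0.000833) and fell by 0.67 ± 0.12 in OCM1 (adjusted p = 0.00194).

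CASP1 encodes the inflammatory caspase that matures interleukin-1β. MUM2B read 8.91, 7.37 and 7.65 in wild type and 7.86, 8.16 and 8.51 in CANT1 cells. OCM1 read 6.20, 7.86 and 8.29 in wild type and 7.27, 6.95 and 7.25 in CANT1 cells. In both lines replicate 1 ran opposite to replicates 2 and 3. On the latter CASP1 rose by 0.83 ± 0.17 in MUM2B (adjusted p = 0.0061) and fell by 0.98 ± 0.17 in OCM1 (adjusted p = 0.00215). The 4 CASP1 probe sets with a signal of at least 100 on 2 or more arrays gave 0.78 to 1.20 in MUM2B and −1.75 to −0.98 in OCM1.

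DAPK1, a calmodulin-dependent death-associated kinase, was far higher in OCM1. MUM2B read 7.40, 6.94 and 7.29 in wild type and 6.66, 6.51 and 6.57 in CANT1 cells, around and under the signal of 100. On replicates 2 and 3 that signal was reached on 1 wild type MUM2B array and on all OCM1 arrays. DAPK1 thus entered the test through OCM1. OCM1 read 9.94, 9.61 and 9.73 in wild type and 9.84, 10.05 and 10.08 in CANT1 cells. The wild type and CANT1 arrays did not overlap in MUM2B, and they did in OCM1. DAPK1 fell on replicates 2 and 3 by 0.58 ± 0.12 in MUM2B (adjusted p = 0.00595) and rose by 0.40 ± 0.12 in OCM1 (adjusted p = 0.0322). A dimmer DAPK1 probe set gave 0.064 and 0.0070, so the 2 probe sets disagree.

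**Figure D2:**
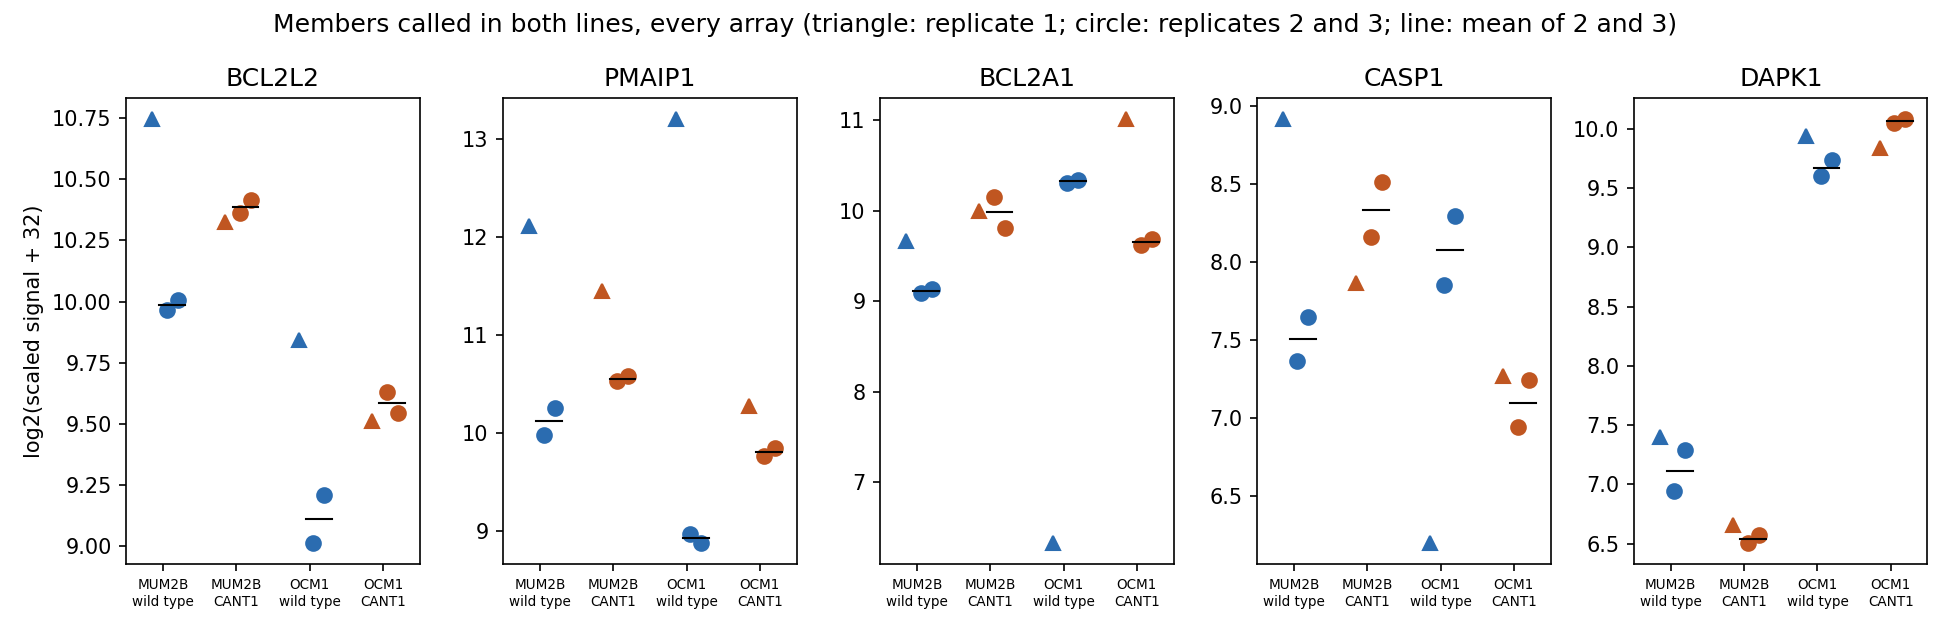
Log2(scaled signal + 32) of the 5 members that passed in both lines, one panel per gene with its own vertical scale; blue marks wild type and orange CANT1 cells, triangles are replicate 1, circles replicates 2 and 3, and the bar is the mean of replicates 2 and 3. The wild type OCM1 triangle lies at 13.20 for PMAIP1 and at 6.33 for BCL2A1, away from the circles of its group.

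Promoter sequences are shown for the members among these 5 that RefSeq's table holds, since they move together or against each other between the lines. The table (GRCh38.p14) held 31 of the 39 members. Each window runs from 250 bases before to 50 after the annotated start, 5′ to 3′ on the gene's strand, with motif matches on either strand in capitals. PMAIP1 lies at chr18:59899746-59900045 on the plus strand, with a GC content of 71.3%; the capitals are 4 GC boxes (GGGCGG or its complement) and 1 CRE-like motif (TGACGT).
PMAIP1: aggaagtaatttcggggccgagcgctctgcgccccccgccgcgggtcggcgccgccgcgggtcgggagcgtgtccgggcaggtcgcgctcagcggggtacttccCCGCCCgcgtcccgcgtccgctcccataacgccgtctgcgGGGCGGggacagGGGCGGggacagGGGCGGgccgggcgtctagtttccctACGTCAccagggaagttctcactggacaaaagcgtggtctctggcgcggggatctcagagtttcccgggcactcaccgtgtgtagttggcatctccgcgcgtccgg
BCL2A1 lies at chr15:79971147-79971446 on the minus strand, with a GC content of 41.0%; the capitals are 1 match to the IRF motif, 1 TATA motif (TATAAA) and 1 E-box (CATGTG).
BCL2A1: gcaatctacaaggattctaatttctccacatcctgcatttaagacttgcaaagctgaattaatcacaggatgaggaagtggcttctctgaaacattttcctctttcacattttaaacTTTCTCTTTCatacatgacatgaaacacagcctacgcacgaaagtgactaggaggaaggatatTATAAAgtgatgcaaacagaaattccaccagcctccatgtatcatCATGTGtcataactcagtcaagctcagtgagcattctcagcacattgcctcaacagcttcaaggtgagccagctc
DAPK1 lies at chr9:87497617-87497916 on the plus strand, with a GC content of 75.3%; the capitals are 2 GC boxes.
DAPK1: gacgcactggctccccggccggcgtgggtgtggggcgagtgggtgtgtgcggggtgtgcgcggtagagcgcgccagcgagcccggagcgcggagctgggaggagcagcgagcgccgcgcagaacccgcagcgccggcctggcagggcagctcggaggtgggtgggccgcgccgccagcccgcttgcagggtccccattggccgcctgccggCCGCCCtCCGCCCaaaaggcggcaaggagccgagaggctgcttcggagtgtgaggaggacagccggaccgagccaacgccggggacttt

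The 8 motifs searched also included AP-1 (TGANTCA), another E-box (CACGTG) and the NF-κB consensus, and no match overlapped another in the windows shown. Over 27305 promoters of the same length, 44.6% held a GC box, 8.32% the CRE-like motif, 3.65% the IRF motif, 12% TATAAA and 11.2% CATGTG. Of the 31 member promoters 21 held a GC box, 5 the CRE-like motif and 3 the IRF motif (BCL2A1, CASP8 and TNFSF10). The median GC content was 66.3% over the member promoters and 58.3% over all. These matches describe the letters only.

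Among the other guard genes, MCL1 encodes a short-lived protein that holds BAK1 in check. MUM2B read 13.02, 12.53 and 12.50 in wild type and 12.61, 12.94 and 12.98 in CANT1 cells, and OCM1 12.32, 11.46 and 11.56 against 11.74, 11.57 and 11.64. On replicates 2 and 3 MCL1 rose by 0.45 ± 0.09 in MUM2B (adjusted p = 0.0056) and differed by 0.10 ± 0.09 in OCM1 (adjusted p = 0.468). The rise rests on the brightest probe set: the 6 MCL1 probe sets ranged from −0.44 to 0.45 in MUM2B. BCL2, the founding guard gene of the family, read 6.88, 7.10 and 7.12 in wild type and 7.46, 7.05 and 6.70 in CANT1 MUM2B cells. In OCM1 it read 8.49, 8.38 and 8.28 against 8.65, 7.93 and 8.15. All 6 OCM1 arrays lay above all 6 MUM2B arrays, and the CANT1 differences of −0.23 ± 0.12 and −0.29 ± 0.12 did not pass (adjusted p = 0.205 and 0.119). BCL2L1, which encodes BCL-XL, read 9.60, 10.38 and 10.13 in wild type and 9.63, 10.27 and 10.12 in CANT1 MUM2B cells, and 8.46, 9.37 and 9.44 against 9.43, 9.78 and 9.59 in OCM1. Its CANT1 differences were −0.07 ± 0.11 in MUM2B and 0.27 ± 0.11 in OCM1 (adjusted p = 0.734 and 0.107).

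The pore formers BAK1 and BOK did not pass in either line. BOK read 8.57, 9.55 and 9.26 in wild type and 8.62, 9.44 and 9.70 in CANT1 MUM2B cells, and 6.27, 8.86 and 8.94 against 8.49, 9.10 and 8.95 in OCM1. Its value of 6.27 is again that of the array that stood apart. BAK1 lay between 8.41 and 9.54, with replicate 1 lowest in every group, and differed by −0.23 ± 0.09 and −0.20 ± 0.09 with CANT1 (adjusted p = 0.0847 and 0.126). The 4 BAK1 probe sets that could be read gave −0.59 to −0.23 in MUM2B and −0.28 to −0.090 in OCM1.

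Of the 7 BH3-only genes, 1 rose in MUM2B (PMAIP1), and 2 rose and 2 fell in OCM1. BCL2L11, which encodes BIM, read 8.85, 8.85 and 8.92 in wild type and 8.47, 9.60 and 9.70 in CANT1 OCM1 cells. In MUM2B it read 8.31, 7.44 and 7.68 against 8.01, 7.73 and 7.98. It rose by 0.76 ± 0.12 in OCM1 on replicates 2 and 3 (adjusted p = 0.000961), where replicate 1 gave −0.38, and differed by 0.29 ± 0.12 in MUM2B (adjusted p = 0.0882).

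BID links the death receptor route to mitochondria once caspase 8 has cut it. It fell in OCM1 on every array: 9.65, 9.69 and 9.76 in wild type against 9.31, 9.14 and 9.15 in CANT1 cells. MUM2B read 10.37, 10.51 and 10.53 against 10.39, 10.67 and 10.80. The difference was −0.58 ± 0.09 in OCM1 on replicates 2 and 3 (adjusted p = 0.00123) and 0.21 ± 0.09 in MUM2B (adjusted p = 0.122). All 4 BID probe sets were lower in OCM1, by −0.62 to −0.25.

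HRK, a BH3-only gene best known from neurons, read 8.85, 8.25 and 8.48 in wild type and 8.46, 7.93 and 8.06 in CANT1 OCM1 cells, and 7.88, 7.19 and 7.16 against 7.70, 7.37 and 7.32 in MUM2B. It fell by 0.37 ± 0.10 in OCM1 (adjusted p = 0.0241). BAD, whose protein is held inactive by survival kinases, read 9.96, 10.22 and 10.22 against 10.13, 10.48 and 10.31 in MUM2B and 10.10, 8.73 and 8.80 against 8.80, 8.80 and 8.83 in OCM1. Apart from the array that stood apart, BAD was thus lower on every OCM1 array than on every MUM2B array. BIK read 9.61, 9.71 and 9.67 against 10.42, 9.79 and 9.84 in MUM2B, with all CANT1 arrays above all wild type arrays. In OCM1 it read 8.47, 7.10 and 7.36 against 7.42, 7.28 and 7.0. Neither BAD nor BIK passed for CANT1 in either line, nor did BMF, which lay between 6.93 and 8.87.

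Among the death ligand and receptor genes, TNFSF10, which encodes the ligand TRAIL, passed in MUM2B alone. Wild type MUM2B read 8.52, 6.41 and 6.77 and CANT1 MUM2B 7.08, 7.07 and 7.74. OCM1 read 6.08, 6.17 and 6.03 against 6.19, 6.20 and 6.01, all under the signal of 100. Of the arrays of replicates 2 and 3 only the CANT1 arrays of MUM2B reached the signal of 100 (103 and 182, against 52.9 and 77.2 in wild type), so TNFSF10 entered the test through the group in which it was higher, and its call supports nothing further. That difference was 0.82 ± 0.19 (adjusted p = 0.0104), and the replicate 1 difference was −1.44. The test of the difference between the lines gave −0.81 ± 0.27 (adjusted p = 0.051), which did not pass. TNFRSF10A, a TRAIL receptor gene, read 8.51, 9.10 and 9.03 against 8.57, 8.89 and 8.96 in MUM2B and 5.87, 5.80 and 6.09 against 6.19, 5.82 and 6.12 in OCM1. TNFRSF1A, the main receptor gene for tumour necrosis factor, read 11.49, 11.76 and 11.74 against 11.38, 11.90 and 12.04 in MUM2B and 9.24, 9.20 and 9.22 against 8.93, 9.47 and 9.36 in OCM1. Both receptor genes divided the lines without overlap and did not pass for CANT1.

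FADD, the adaptor that joins death receptors to initiator caspases, rose in OCM1 on every array. It read 10.50, 10.48 and 10.54 in wild type and 11.04, 11.04 and 11.08 in CANT1 OCM1 cells. In MUM2B it read 11.10, 11.51 and 11.44 against 11.45, 11.36 and 11.08. The differences on replicates 2 and 3 were 0.55 ± 0.11 in OCM1 (adjusted p = 0.00382) and −0.25 ± 0.11 in MUM2B (adjusted p = 0.105). Both FADD probe sets that could be read gave this pattern, at 0.52 and 0.55 in OCM1. TRADD, the adaptor of the tumour necrosis factor receptor, lay between 8.44 and 10.03 and did not pass in either line.

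Of the 3 initiator caspases tested, CASP2 alone passed, in MUM2B. CASP2 is an initiator known from the response to DNA damage. It read 9.09, 10.05 and 10.21 in wild type and 9.59, 9.52 and 9.37 in CANT1 MUM2B cells, and 10.72, 10.64 and 10.75 against 10.57, 10.71 and 10.67 in OCM1. The fall in MUM2B was 0.68 ± 0.10 on replicates 2 and 3 (adjusted p = 0.00128), and replicate 1 ran the other way at 0.50. All 3 CASP2 probe sets were lower there, by −0.68 to −0.43. CASP8, the initiator of the death receptor route, read 8.84, 9.42 and 9.38 against 8.77, 9.26 and 9.05 in MUM2B and 8.54, 8.91 and 9.05 against 8.78, 9.19 and 9.01 in OCM1, and did not pass. CASP9, the initiator of the mitochondrial route, lay between 8.57 and 9.20; its OCM1 arrays did not overlap, with CANT1 higher, but 0.23 ± 0.10 did not pass (adjusted p = 0.108).

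CASP6, an executioner caspase, rose in OCM1, from 9.17, 8.16 and 8.30 to 9.54, 8.85 and 8.63. MUM2B read 8.57, 8.32 and 8.45 against 9.07, 8.21 and 8.33. The differences were 0.51 ± 0.11 (adjusted p = 0.00663) and −0.12 ± 0.11 (adjusted p = 0.484). CASP4, an inflammatory caspase that senses lipopolysaccharide, read 11.95, 11.33 and 11.31 against 11.22, 11.52 and 11.61 in MUM2B and 5.98, 7.88 and 7.89 against 8.33, 8.11 and 7.99 in OCM1. Its OCM1 arrays did not overlap, yet the difference on replicates 2 and 3 was 0.16 ± 0.09 (adjusted p = 0.223).

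Among the caspase inhibitors, CFLAR encodes FLIP, which blocks caspase 8 at death receptors. MUM2B read 9.73, 8.34 and 8.43 in wild type and 9.27, 9.13 and 9.02 in CANT1 cells. OCM1 read 8.50, 8.50 and 8.52 in wild type and 9.29, 8.81 and 8.74 in CANT1 cells, with no overlap. CFLAR rose by 0.69 ± 0.09 in MUM2B (adjusted p = 0.000846), where all 8 of its probe sets that could be read were higher (0.18 to 1.02), and differed by 0.26 ± 0.09 in OCM1 (adjusted p = 0.0624). BIRC2, an inhibitor of apoptosis gene that also acts in NF-κB signalling, read 12.68, 12.08 and 12.11 against 12.51, 12.20 and 12.05 in MUM2B and 12.20, 10.99 and 10.99 against 11.52, 11.10 and 11.21 in OCM1. XIAP, the direct inhibitor of executioner caspases, lay between 9.90 and 12.43, its highest value on the array that stood apart. Neither passed for CANT1.

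Of the 5 genes for mitochondrial proteins released in apoptosis, 1 rose and 2 fell in MUM2B and 0 passed in OCM1. HTRA2, a protease that removes inhibitors of apoptosis, read 8.99, 9.28 and 9.47 in wild type and 9.37, 9.89 and 9.90 in CANT1 MUM2B cells. In OCM1 it read 9.95, 10.31 and 10.43 against 10.10, 10.58 and 10.66. It rose by 0.52 ± 0.10 in MUM2B (adjusted p = 0.00452) and differed by 0.25 ± 0.10 in OCM1 (adjusted p = 0.0916), and its replicate 1 differences were 0.38 and 0.15. CYCS, cytochrome c, read 13.34, 13.91 and 13.64 against 13.66, 13.29 and 13.26 in MUM2B, and 13.52, 13.62 and 13.41 against 13.71, 13.44 and 13.49 in OCM1. It fell by 0.50 ± 0.11 in MUM2B (adjusted p = 0.00955), but its probe set can also bind near-identical copies of the gene, so the value is uncertain. All 3 CYCS probe sets were lower there, by −0.50 to −0.24. Names of 16 of the 38 member probe sets end in x or s, a mark of possible shared binding. CASP1, MCL1, CASP2, HTRA2 and TNFRSF1A are among these. AIFM1, a flavoprotein that moves to the nucleus in cell death, read 9.63, 10.11 and 10.10 against 9.97, 9.78 and 9.58 in MUM2B and 10.74, 10.82 and 10.83 against 10.96, 10.50 and 10.58 in OCM1. It fell by 0.43 ± 0.10 in MUM2B (adjusted p = 0.00976) and differed by −0.29 ± 0.10 in OCM1 (adjusted p = 0.0562). DIABLO, which encodes SMAC, an antagonist of XIAP, read 10.89, 10.94 and 10.94 against 10.79, 11.03 and 10.99 in MUM2B and 11.53, 11.22 and 11.35 against 11.15, 11.22 and 11.26 in OCM1. ENDOG, a mitochondrial nuclease, had the narrowest range of all members, 8.82 to 9.30.

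DAPK3, DFFA and DFFB did not pass for CANT1 in either line. DAPK3, a kinase related to DAPK1, lay between 8.59 and 9.44. DFFA, the chaperone and inhibitor of the caspase-activated DNase, lay between 8.97 and 10.75, its highest value on the array that stood apart. DFFB, the DNase itself, read 7.53, 6.62 and 6.60 against 7.35, 6.76 and 6.82 in MUM2B and 8.44, 7.45 and 7.33 against 8.05, 7.30 and 7.25 in OCM1.

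The labelled sets ran against each other for most of the members that passed. With 1 array per group, replicate 1 allows no test. There, 2 members in MUM2B were lower by at least 2-fold with CANT1, TNFSF10 (−1.44) and CASP1 (−1.05), where 4.57% of all genes passed that fold. In OCM1, 5 were higher and 5 lower by at least 2-fold, against 20.7% of all genes. The higher ones were BCL2A1 (4.68), CASP4 (2.35), BOK (2.23), TRADD (1.11) and CASP1 (1.07), and the lower ones PMAIP1 (−2.92), XIAP (−1.85), BAD (−1.3), DFFA (−1.14) and BIK (−1.05). These OCM1 values all rest on the wild type array that stood apart, and no value without it can be given.

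Of the 12 members that passed on replicates 2 and 3 in MUM2B, 3 had the same sign on replicate 1 (BCL2A1, HTRA2 and DAPK1), as did 12.6% of the 3045 genes that passed there. Of the 10 in OCM1, 4 had the same sign (BID, HRK, FADD and CASP6), as did 39% of 2898 genes. A fit in which the CANT1 effect could differ between the sets, chosen after the data were seen, assumed that the lone arrays of replicate 1 vary like the others. In it the effect on replicate 1 minus that on replicates 2 and 3 passed for 17 of 37 members in MUM2B, against 35.8% of all genes. The largest such differences were those of TNFSF10 (−2.26) and CASP1 (−1.88). TNFSF10 reached a signal of 100 on 4 of the 12 arrays, the wild type MUM2B array of replicate 1 and the CANT1 arrays of MUM2B. It thus entered this fit through arrays that make up its difference, and nothing further is read from it. For OCM1 no such test is given, since its wild type array of replicate 1 did not vary like the others. There BCL2A1 gave 4.68 on replicate 1 and −0.67 on replicates 2 and 3, and PMAIP1 −2.92 and 0.88. The ACTB ratio, the growth label and the replicate number change together between the sets and cannot be told apart.

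**Figure D3:**
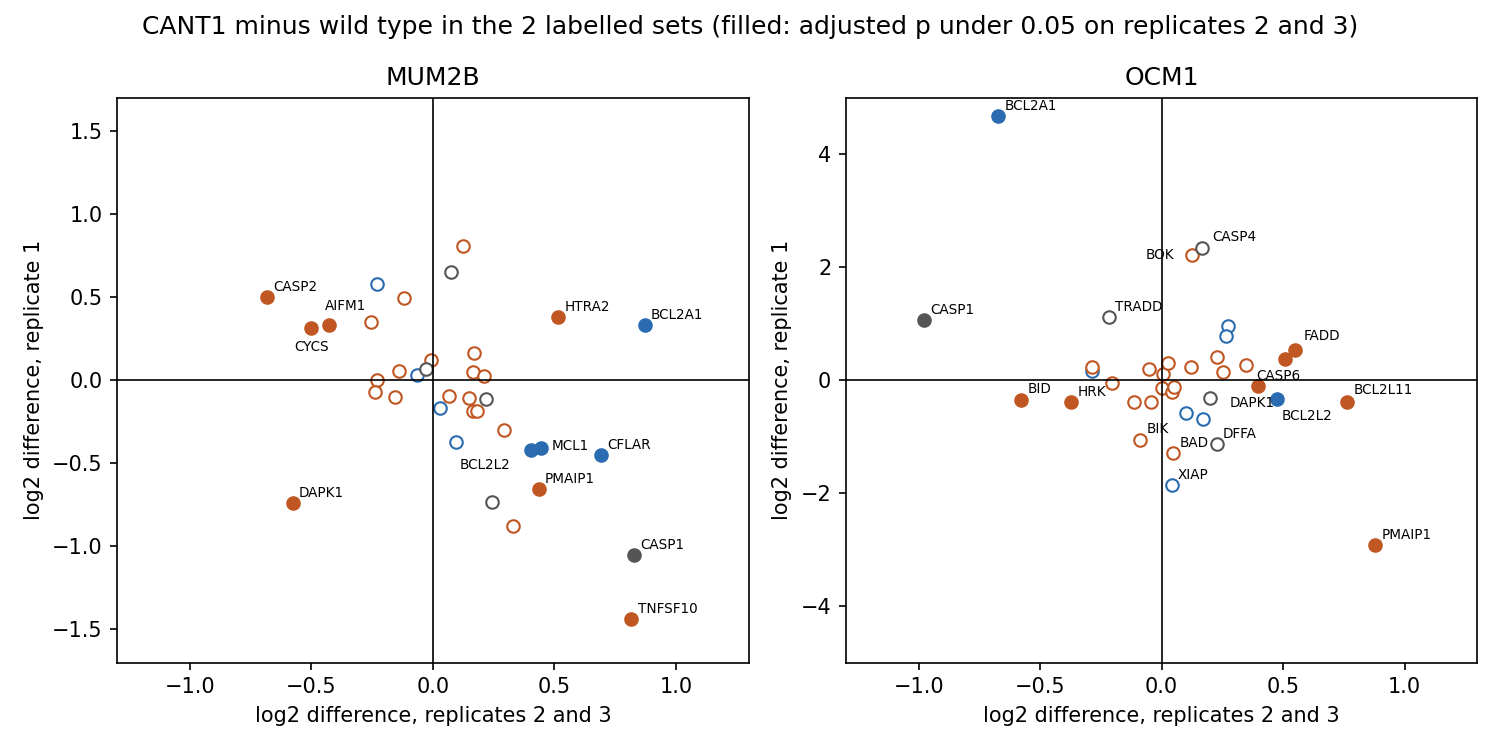
Log2 difference between CANT1 and wild type cells on replicate 1 (vertical axis, 1 array per group) against that on replicates 2 and 3 (horizontal axis, 2 arrays per group) for 37 members; blue marks anti-apoptotic, orange pro-apoptotic and grey other members, filled where the adjusted p on replicates 2 and 3 was under 0.05. The vertical scales of the panels differ; in MUM2B 3 of 12 filled points and in OCM1 4 of 10 have the same sign on both axes.

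Members whose 3 CANT1 and 3 wild type arrays did not overlap numbered 3 in MUM2B, where 4.78% of all genes did not overlap, and 5 in OCM1, against 11.5%. In MUM2B they were BCL2A1 and BIK, higher with CANT1, and DAPK1, lower. In OCM1 they were FADD, CFLAR, CASP4 and CASP9, higher, and BID, lower. Without the array that stood apart, 15 members did not overlap in OCM1, and 35.4% of all genes.

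The CANT1 effects differed between the lines for 9 of 37 members on replicates 2 and 3, close to the 22.0% of all genes for which they did. The difference is the OCM1 effect minus the MUM2B effect. The opposed members led: CASP1 at −1.81 ± 0.24 (adjusted p = 0.000738), BCL2A1 at −1.54 ± 0.16 (adjusted p = 0.000179) and DAPK1 at 0.97 ± 0.17 (adjusted p = 0.00281). For DAPK1 the dimmer probe set gave 0.064 in MUM2B and 0.0070 in OCM1, so its opposed effects rest on the brighter one. FADD (0.80 ± 0.15), CASP2 (0.68 ± 0.14) and CASP6 (0.63 ± 0.15) were shifted upward in OCM1 relative to MUM2B. BID (−0.79 ± 0.13), HRK (−0.54 ± 0.15) and CFLAR (−0.43 ± 0.13) were shifted downward. PMAIP1, higher in both lines, gave 0.44 ± 0.15 (adjusted p = 0.06), and MCL1 −0.35 ± 0.13 (adjusted p = 0.0766), neither of which passed. With 1 array left out in turn, CASP6, HRK and CFLAR lost this call at least once and the other 6 did not.

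More members differed between the wild type lines than between CANT1 and wild type cells of either line. OCM1 had lower CASP4, TNFRSF1A and BIK, TNFRSF10A signals under 100, and higher DAPK1, BCL2 and HRK than MUM2B. On replicates 2 and 3, 14 of 37 members were higher and 16 lower in OCM1, against 34.8% and 29.2% of all genes. Over the 12 arrays, 9 were higher and 13 lower, against 19.1% and 13.9%. Replicate 1 alone, which includes the array that stood apart, had 16 members at least 2-fold apart, 6 higher and 10 lower in OCM1, against 23.3% of all genes. All 22 members that passed over the 12 arrays also passed when the OCM1 array that stood apart was left out, with 26 passing in all. This comparison and those of CANT1 share the wild type arrays.

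CASP4 had the largest difference, −3.43 ± 0.09 on replicates 2 and 3 (adjusted p = 4.13e-11), a 10.8-fold lower value in OCM1. Over 12 arrays it was −4.28 ± 0.43 (adjusted p = 7e-05), and on replicate 1, with the array that stood apart, −5.97. All 6 of its probe sets that could be read were lower in OCM1, by −3.86 to −1.53. TNFRSF10A was lower by −3.12 ± 0.13 (adjusted p = 1.34e-09) and TNFRSF1A by −2.54 ± 0.09 (adjusted p = 7.02e-10). The 4 readable TNFRSF1A probe sets ranged from −2.87 to −0.28, and with the one at −0.28 the call was lost. TNFRSF10A reached a signal of 100 on the MUM2B arrays alone (333 to 519, against 23.6 to 40.8 in OCM1), so it entered the test through the line where it was high and the size of its difference depends on the added 32. TNFSF10 did so too, at 32.5 to 41.3 in OCM1. Its difference of −0.49 ± 0.19 (adjusted p = 0.0404) did not pass over 12 arrays (−1.14 ± 0.42, adjusted p = 0.064). It lost its call under 5 of the 14 alternatives that could test it. Most members had 18 alternatives, and in the rest of these TNFSF10 fell below the filter. DFFB, on replicates 2 and 3, reached 100 in OCM1 alone and was higher there by 0.78 ± 0.09 (adjusted p = 1.29e-05). Its other readable probe sets gave 0.10 and 0.0083. BIK was lower by −2.46 ± 0.12 (adjusted p = 6.71e-09), and BAD by −1.46 ± 0.09 (adjusted p = 8.44e-08) except on replicate 1, where the lines read 10.10 and 9.96. PMAIP1 was lower by −1.19 ± 0.11 (adjusted p = 1.58e-06) on replicates 2 and 3 and higher by 1.09 on replicate 1. BOK passed at −0.50 ± 0.12 (adjusted p = 0.00385), but its other 2 probe sets gave −0.099 and −0.039.

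DAPK1 was higher in OCM1 by 2.55 ± 0.12 on replicates 2 and 3 (adjusted p = 4.59e-09) and by 2.54 on replicate 1; its dimmer probe set gave 0.64. BCL2 was higher by 1.22 ± 0.12 (adjusted p = 4.01e-06), although its 5 readable probe sets ranged from 0.032 to 1.22. The BH3-only genes divided: BMF (1.43 ± 0.12), BCL2L11 (1.32 ± 0.12) and HRK (1.19 ± 0.10) were higher, and BIK, BAD, PMAIP1 and BID (−0.80 ± 0.09) lower. The readable probe sets ranged from 0.094 to 1.43 for BMF and from 0.27 to 1.32 for BCL2L11. Among the guard genes BCL2 and BCL2A1 (1.21 ± 0.12) were higher and BCL2L1 (−0.85 ± 0.11), BCL2L2 (−0.88 ± 0.10) and MCL1 (−1.01 ± 0.09) lower. The readable probe sets disagreed in sign for MCL1 (−2.25 to 0.16) and BCL2L1 (−0.85 to 0.19). Among the genes for released mitochondrial proteins, HTRA2 (0.99 ± 0.10), AIFM1 (0.72 ± 0.10) and DIABLO (0.35 ± 0.09) were higher, and CYCS and ENDOG did not pass. BCL2A1, BMF, PMAIP1, BAD, CASP1 and CASP9 had the opposite sign on replicate 1, and the other 24 of the 30 had the same, as did 64.2% of the 7920 genes that passed.

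**Figure D4:**
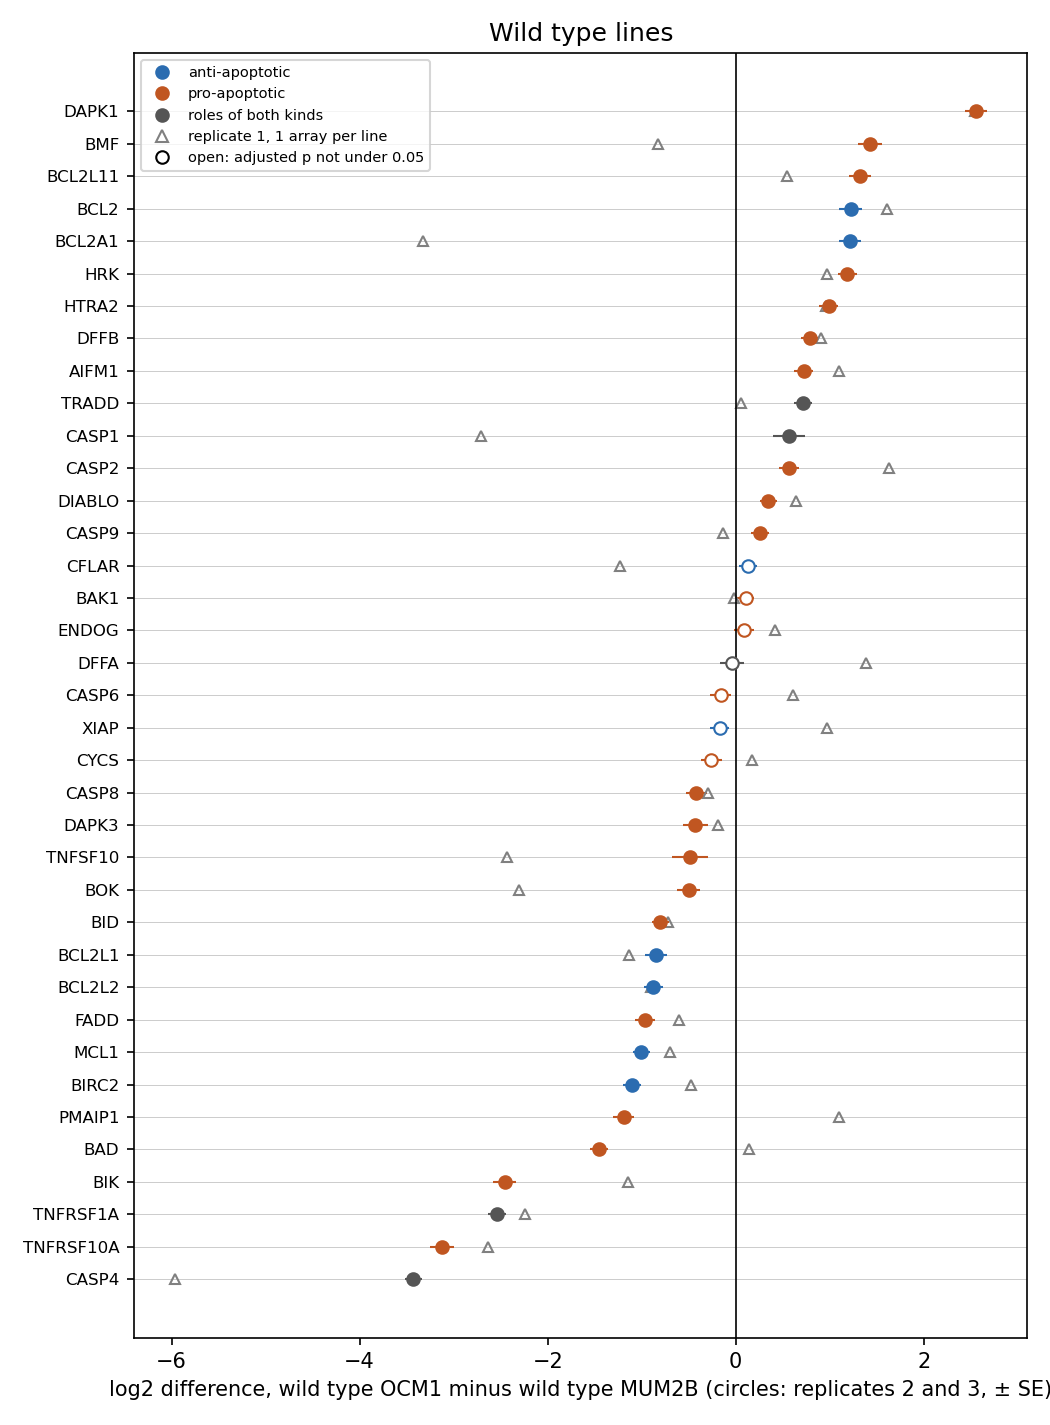
Log2 difference between wild type OCM1 and wild type MUM2B (horizontal axis) for the 37 tested members, ordered by size on replicates 2 and 3 (circles, ± SE, filled where the adjusted p was under 0.05); grey triangles are replicate 1, with 1 array per line. CASP4 lies farthest to the left at −3.43 and DAPK1 farthest to the right at 2.55, and the triangles of BCL2A1, PMAIP1 and CASP1 lie on the other side of zero from their circles.

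Across both conditions, 17 of 37 members did not overlap between the 6 OCM1 and the 6 MUM2B arrays, against 23.2% of all genes; without the array that stood apart there were 21, against 36.5%. The 8 higher in OCM1 were BCL2, HRK, BCL2L11, CASP2, DIABLO, HTRA2, AIFM1 and DAPK1. The 9 lower were BCL2L2, MCL1, BID, BIK, TNFSF10, TNFRSF10A, TNFRSF1A, FADD and CASP4.

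A second list of 30 apoptosis genes outside the members, 22 of them tested, was read in the same way. In MUM2B 4 rose and 1 fell on replicates 2 and 3 (18.2% and 4.55%, against 14.2% and 10.4% of all genes), with a median of 0.054 against 0.0047. BBC3, which encodes the BH3-only protein PUMA, rose by 0.87 ± 0.14 (adjusted p = 0.00177), BNIP3L by 0.62 ± 0.14 (adjusted p = 0.00923) and TNFRSF10B by 0.62 ± 0.20 (adjusted p = 0.0448). FAIM, an inhibitor of Fas-induced death, fell by 0.46 ± 0.15 (adjusted p = 0.0413). On replicate 1 each of these ran the other way. Signals there went from 989 in wild type to 411 in CANT1 MUM2B cells for BBC3 and from 2845 to 2426 for BNIP3L. TNFRSF10B went from 3505 to 2645 and FAIM from 85.2 to 195. In OCM1 2 rose and 3 fell (9.09% and 13.6%, against 13.9% and 9.51%), with a median of −0.10 against 0.039. The melanoma inhibitor of apoptosis gene BIRC7 fell by 0.83 ± 0.13 (adjusted p = 0.00128), PYCARD by 0.51 ± 0.15 (adjusted p = 0.0269) and BIRC5, survivin, by 0.40 ± 0.10 (adjusted p = 0.0135). The death receptor gene FAS rose by 0.38 ± 0.12 (adjusted p = 0.0459). Over the 12 arrays 0 of the 22 passed in either line. Between the wild type lines 11 were higher and 5 lower in OCM1 on replicates 2 and 3 (50% and 22.7%, against 34.8% and 29.2% of all genes), and 7 and 4 over the 12 arrays.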

How the data were processed

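Values of 12 Affymetrix arrays were deposited by the authors per probe set and read as log2 values, and MAS5 is named in the submitters' processing notes; the normalization and the log base are not given in the sources used here, and base 2 was taken from the range of the values, so that signals and folds rest on it. The deposited values were raised from the log2 scale, scaled to a 2% trimmed mean of 500 per array, increased by 32 and returned to log2. A gene was read by the probe set annotated to it alone with the highest mean, and tested where a signal of 100 was reached on at least 3 arrays, or 2 for replicates 2 and 3. Groups were compared with limma 3.58.1 in R 4.3.3, with a term for the labelled set over 12 arrays, and p-values were adjusted by Benjamini-Hochberg over all genes tested (threshold 0.05). Replicate 1 has a 2-fold rule and no test. Values on every array are given for members passing over 12 arrays, the 8 largest passing on replicates 2 and 3 in each line, those passing in both lines, up to 6 whose effects differed between the lines, up to 8 passing between the wild type lines in both fits, and the brightest tested member of any role group left; other apoptosis genes are named up to 4 per line. The members and lists were chosen with earlier results of these data known. The fit with a CANT1 effect per set (MUM2B only), the crossed pairing and the non-overlap without 1 array were added after seeing the data. Alternatives covered normalization, offset, filter, probe set choice, design terms and each array left out. The number of arrays limits the precision. Same-numbered arrays did not deviate together in every comparison (r from −0.128 to 0.221), so the replicate number was not used as a block.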

Additional observations from a re-analysis of the deposited data

Results flagged for a closer look

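On replicates 2 and 3, 9 members passed the test that the CANT1 effect differs between the lines, as 22.0% of all genes did (OCM1 effect minus MUM2B effect, limma, log2 scale, 2 arrays per group). Those with a more negative effect in OCM1 were CASP1 (−1.81 ± 0.24, adjusted p = 0.000738), BCL2A1 (−1.54 ± 0.16, adjusted p = 0.000179), BID (−0.79 ± 0.13, adjusted p = 0.00224), HRK (−0.54 ± 0.15, adjusted p = 0.0232) and CFLAR (−0.43 ± 0.13, adjusted p = 0.0379). Those with a more positive effect in OCM1 were DAPK1 (0.97 ± 0.17, adjusted p = 0.00281), FADD (0.80 ± 0.15, adjusted p = 0.00405), CASP2 (0.68 ± 0.14, adjusted p = 0.00716) and CASP6 (0.63 ± 0.15, adjusted p = 0.015). A dimmer DAPK1 probe set gave CANT1 effects of 0.064 in MUM2B and 0.0070 in OCM1. Over the 12 arrays 0 members passed this test, and 6 had an unadjusted p under 0.05, as did 4.99% of all genes.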

How the results depend on the processing

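Of 1585 values of single members and settings compared with the reported ones, 1482 kept direction and side of the threshold, 103 kept direction but no longer passed and 0 reversed. Only members that had passed were compared, and settings in which a member fell below the filter were not counted. No setting held replicate 1 alone, where many calls of replicates 2 and 3 had the opposite sign. On replicates 2 and 3, leaving out 1 array gave 5 to 14 members passing for CANT1 in MUM2B (reported, 12), 6 to 11 in OCM1 (reported, 10), 6 to 9 for the difference between the lines and 26 to 30 for the wild type lines; the lone array is then assumed to vary like the others. Over 12 arrays the ranges were 0 to 0 for CANT1 in either line and for the difference, and 18 to 26 for the wild type lines (reported, 22). With the larger offset in place of 32, 1 member instead of 2 passed the 2-fold rule in MUM2B on replicate 1. BOK and BAD between the wild type lines over 12 arrays lost their calls most often, under 15 and 11 alternatives. With the replicate block, replicates 2 and 3 gave 13 members in MUM2B, 10 in OCM1, 11 whose effects differed and 30 between the wild type lines, and the 12 arrays gave 20 between the wild type lines and 0 in each other comparison. Deviations of same-numbered arrays correlated at 0.195 in MUM2B and −0.128 in OCM1; with the OCM1 numbers crossed, a pairing added after seeing the data, 11 members passed. Signals near 100, as for DAPK1 in MUM2B, or below it, as for TNFSF10 and TNFRSF10A in OCM1, limit what fold can be read.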
